A study of Mus musculus with 28 samples.

Results

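The 10 genes described here, Ifit1, Ifit2, Ifit3, Isg15, Oasl2, Oas1a, Irf7, Rsad2, Usp18 and Ifi44, are interferon-stimulated genes that type I interferons induce in most cell types. They were taken from a liver RNA-seq count table by symbol, and each matched 1 of its 49585 features. The livers came from male and female wild-type (WT) mice and from mice that overexpress SIRT6, an NAD-dependent deacylase of chromatin and metabolic enzymes, throughout the body (SIRT6-tg). With both sexes and both genotypes there were 4 groups of 7 mice. All 28 mice were 5 to 7 months old, had been fasted before they were killed, and were on a C57BL/6JOlaHsd background. The study compared littermates, in several cohorts. All transgenic mice descend from 1 transgenic line. The promoter that drives the transgene in this line is not given in the sources used here. The question was how SIRT6 overexpression changes these genes in the liver of each sex.

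Type I interferons bind a receptor built from IFNAR1 and IFNAR2, which activates the kinases JAK1 and TYK2. These phosphorylate transcription factors, STAT2 among them, which enter the nucleus with IRF9 as a complex that binds the interferon-stimulated response element (ISRE). Interferon-γ acts through another receptor and another DNA element, the gamma-activated site (GAS). In the liver, hepatocytes, Kupffer cells and other leukocytes all respond to type I interferon, and some interferon-stimulated genes are also induced without interferon, by viral RNA or DNA sensors that act through IRF3. Because whole liver was sequenced, fewer cells of a type and less RNA per cell cannot be told apart in any result below.

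The libraries held 18758863 to 35393069 counted reads. Levels are given as CPM, read counts divided by sequencing depth and adjusted by edgeR's trimmed mean of M-values (TMM), and as RPKM (CPM for each kilobase of exon) where genes are compared with each other. Sirt6 was at 2.73 ± 0.51 CPM in male WT, 281 ± 55 in male SIRT6-tg, 2.88 ± 1.5 in female WT and 30.2 ± 12 in female SIRT6-tg livers (mean ± SD, n = 7 each), so transgenic males and females differed in the amount of transgene RNA. Hepatocyte markers were high in every library, with summed levels of 104446 to 198431 CPM for 10 genes. A gene is called changed at an adjusted p under 0.05 in edgeR's quasi-likelihood test, with Benjamini-Hochberg adjustment over the 21583 genes tested. The labels do not say which mice were litter or cage mates.

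All 10 genes were detected in all 28 livers, with the lowest count being 43 (Ifi44) and the highest 4086 (Irf7). Per exon length, the order of the medians in male WT livers ran from Irf7 (17.3 RPKM) and Isg15 (16.8) over Usp18 (9.41), Ifit3 (9.18), Ifit1 (6.78), Rsad2 (4.61), Ifit2 (3.20), Oas1a (2.86) and Oasl2 (1.92) to Ifi44 (1.32). Neighbours in this order had overlapping ranges over the 7 mice, except Oas1a and Oasl2, whose lowest and highest values were 2.42 and 2.41 RPKM. The order was not the same in every group. In female WT livers Ifit1 had a median of 11.0 RPKM, above Ifit3 (8.90) and Usp18 (7.47), and Ifi44 (2.15) stood above Oas1a (2.13) and Oasl2 (1.67), with overlapping ranges. In male SIRT6-tg livers Isg15 (11.3 RPKM) had the highest median and Ifi44 (0.45) the lowest.

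**Figure D1:**
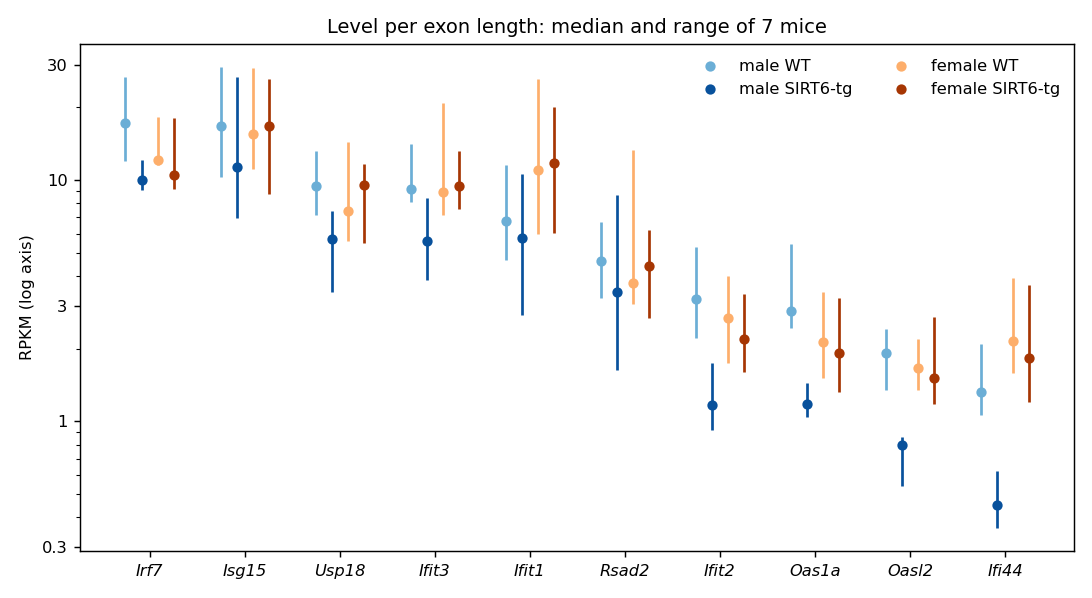
Level per exon length of each gene (RPKM, log axis), with the median as a point and the range of the 7 mice as a line, in the 4 groups. The ranges of male SIRT6-tg livers lie below those of male WT livers for Ifit2, Oas1a, Oasl2 and Ifi44, and overlap them for the other 6 genes.

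The sequence just upstream of the start of 6 members is shown because in 5 of them it holds a match to the ISRE pattern. These include genes that fell and genes that did not pass the test in males. The ISRE was searched as GAAANNGAAA on both strands in the 250 bases before each RefSeq start. It was present for Ifit1, Ifit3, Isg15, Oas1a and Rsad2, which is 5 of the 10 windows of the 9 members that have one, against 2.98% of 32851 windows of all genes. Usp18 has no window in the table, and Ifit2 has 2. The 160 bases before the start (RefSeq, GRCm38.p6) are printed 5′ to 3′ on the strand of the gene, with each ISRE match in capitals; matches on the other strand read TTTCNNTTTC.
Ifit1, chr19:34640729-34640888, plus strand: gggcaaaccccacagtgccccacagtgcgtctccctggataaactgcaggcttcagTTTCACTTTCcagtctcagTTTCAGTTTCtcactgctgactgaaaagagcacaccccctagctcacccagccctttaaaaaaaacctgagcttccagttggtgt
Isg15, chr4:156200819-156200978, minus strand: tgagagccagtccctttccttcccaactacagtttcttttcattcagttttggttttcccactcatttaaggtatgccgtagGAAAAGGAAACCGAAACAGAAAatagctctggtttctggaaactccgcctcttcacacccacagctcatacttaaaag
Rsad2, chr12:26456453-26456612, minus strand: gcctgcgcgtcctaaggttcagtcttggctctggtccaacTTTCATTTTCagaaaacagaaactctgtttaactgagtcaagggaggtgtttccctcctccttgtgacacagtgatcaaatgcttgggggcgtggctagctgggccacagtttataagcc
Ifit3, chr19:34583369-34583528, plus strand: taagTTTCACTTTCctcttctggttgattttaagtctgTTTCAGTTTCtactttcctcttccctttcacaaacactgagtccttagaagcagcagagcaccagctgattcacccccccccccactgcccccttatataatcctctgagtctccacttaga
Oas1a, chr5:120907526-120907685, minus strand: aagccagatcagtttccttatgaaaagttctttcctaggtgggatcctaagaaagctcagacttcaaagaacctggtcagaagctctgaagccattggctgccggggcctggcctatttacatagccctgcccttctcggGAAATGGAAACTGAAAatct
Ifit2, chr19:34550534-34550693, plus strand: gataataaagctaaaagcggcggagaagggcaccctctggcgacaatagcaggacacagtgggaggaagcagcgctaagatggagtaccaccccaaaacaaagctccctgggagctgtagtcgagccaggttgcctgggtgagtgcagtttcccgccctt
Ifit1 and Ifit3 each held 2 separate matches, at 76 and 95 bases and at 113 and 147 bases before the start. Isg15 held 3 overlapping matches from 57 to 78 bases, Oas1a 2 overlapping matches from 5 to 20 bases and Rsad2 1 match at 111 to 120 bases. The printed Ifit2 stretch holds none. Both Ifit2 windows lie near the 5′ end of its gene, and sites elsewhere in the locus were not searched. The GAS, searched as TTCNNNGAA, was found for Ifit2 and Oas1a, against 7.02% of all windows. Of the 7 members that fell in males (below), Ifit3 and Oas1a had an ISRE match in this window. Ifit2, Oasl2, Ifi44 and Irf7 had none. Of the 3 that did not pass the test, Ifit1, Isg15 and Rsad2 all had one. Usp18 could not be searched, and a match is a description of the sequence only. The pattern is exact and only these RefSeq starts were used, so sites that deviate from it or lie at other starts were not counted. Binding was not measured.

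In males, 7 of the 10 genes were lower in SIRT6-tg than in WT livers and none was higher. Over all genes tested, 11.0% were called lower and 9.68% higher. How these calls divide depended on the scaling of the libraries: 2090 genes were called higher and 2377 lower with TMM, 1395 and 2511 with DESeq2's size factors used in edgeR (RLE), 942 and 2649 with upper-quartile scaling, and 210 and 4084 with library size alone. The 7 members were called lower under all 4 scalings. The median log2 fold change of the 10 genes was −0.84, against 0.06 over all genes tested. The 4 genes with the largest decrease, Ifi44, Ifit2, Oas1a and Oasl2, had no overlap between the 7 transgenic and the 7 WT mice, which held in this direction for 4.37% of all genes tested. Ifit3, Irf7 and Usp18 fell less, and Isg15, Ifit1 and Rsad2 did not pass the test.

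**Figure D2:**
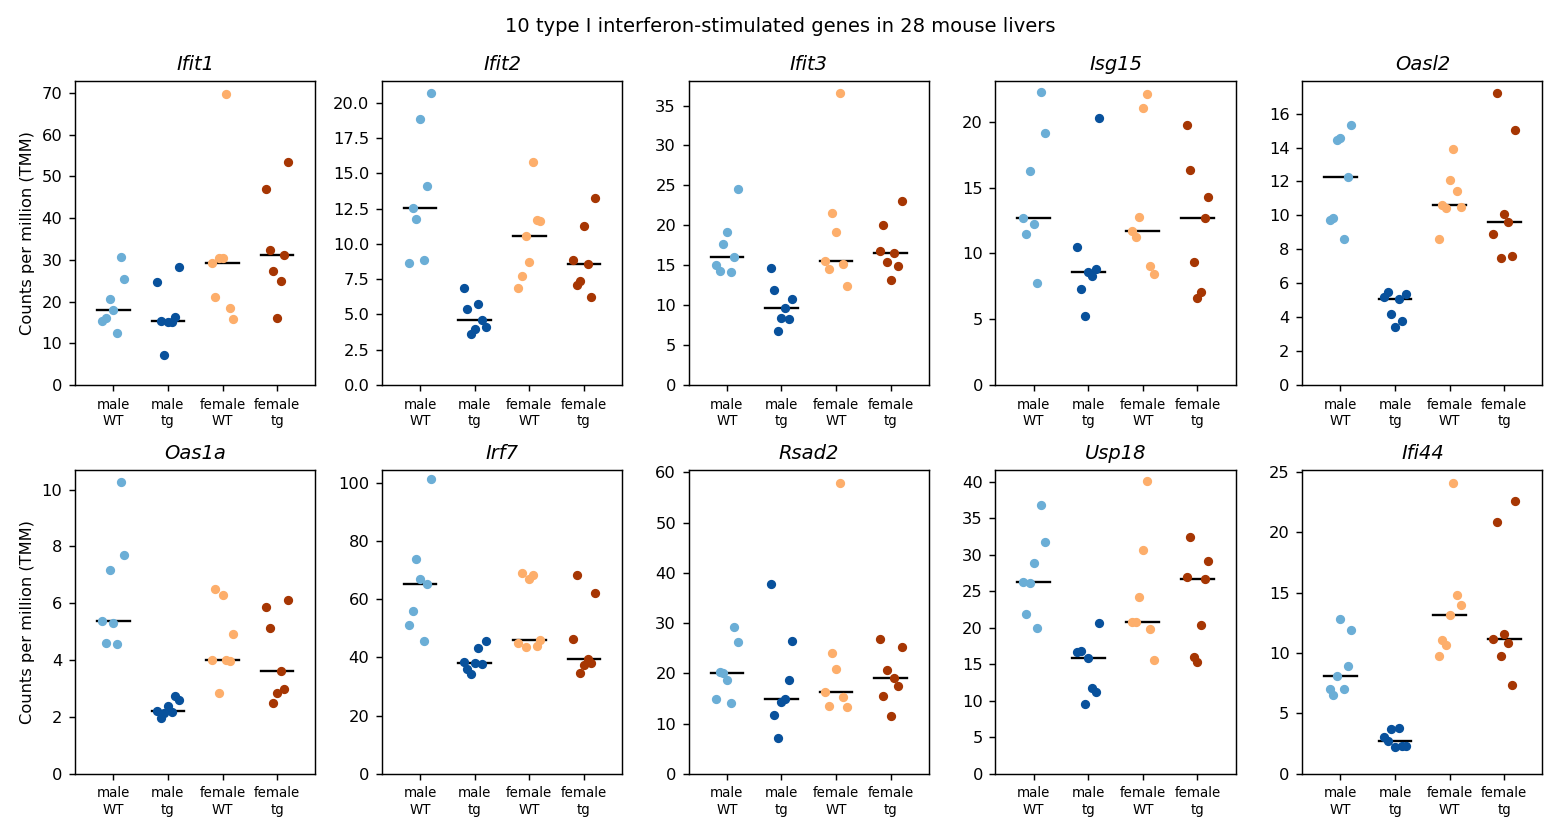
Level of each of the 10 genes in every liver (CPM, linear axis from 0; tg, SIRT6-tg), with 1 point for each mouse and a line at the median of each group of 7. Male SIRT6-tg points lie below all male WT points for Ifit2, Oasl2, Oas1a and Ifi44, and 1 female WT mouse lies far above its group for Ifit1, Ifit3, Rsad2 and Ifi44.

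Among the IFIT proteins, IFIT1 binds viral RNA that lacks the cap modifications of host mRNA. Ifit2 (ENSMUSG00000045932.12, chr19:34550694-34576419, plus strand, GRCm38) ranged from 8.66 to 20.7 CPM in male WT livers, with a median of 12.6. In male SIRT6-tg livers it ranged from 3.60 to 6.87 CPM, with a median of 4.58. Every transgenic male was below every WT male, and Ifit2 fell by 1.48 on the log2 scale (SE 0.21, adjusted p = 4.69e-06). Ifit3 (ENSMUSG00000074896.3, chr19:34583531-34588731, plus strand) ranged from 14.2 to 24.5 CPM (median 16.0) in male WT and from 6.71 to 14.6 CPM (median 9.71) in male SIRT6-tg livers. For Ifit3, 6 of 7 transgenic males were below every WT male, and it fell by 0.78 (SE 0.20, adjusted p = 0.00418). Ifit1 (ENSMUSG00000034459.8, chr19:34640871-34650009, plus strand), whose protein recognises 5′ ends without these modifications, ranged from 12.4 to 30.8 CPM (median 18.01) in male WT and from 7.30 to 28.2 CPM (median 15.3) in male SIRT6-tg livers. The Ifit1 groups overlapped almost fully, with a log2 fold change of −0.19 (SE 0.31, adjusted p = 0.735) and a 95% interval from −0.82 to 0.44. These 3 genes lie in 1 cluster on chromosome 19, with Ifit1bl1, Ifit3b and Ifit1bl2 between Ifit3 and Ifit1. Of the 50-base words of the longest Ifit3 transcript, 51.2% also occur in Ifit3b. A read that falls wholly within such a stretch would not map uniquely. How many reads were lost in this way was not measured, and the values for Ifit3 are uncertain. For Ifit1 that share was 7.13%, nearly all with Ifit1bl2, and for Ifit2 no word was shared.

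The OAS proteins sense double-stranded RNA and, where catalytically active, make the 2′-5′ oligoadenylates that switch on RNase L. Oas1a (ENSMUSG00000052776.10, chr5:120896256-120907521, minus strand) ranged from 4.57 to 10.3 CPM (median 5.39) in male WT livers. In male SIRT6-tg livers it ranged only from 1.96 to 2.72 CPM (median 2.22). The groups did not overlap, and Oas1a fell by 1.48 on the log2 scale (SE 0.22, adjusted p = 6.90e-06). The counts behind the transgenic values were 47 to 66 reads, and 57.6% of the 50-base words of its longest transcript also occur in Oas1g, so its level is uncertain. Oasl2 (ENSMUSG00000029561.17, chr5:114896936-114912234, plus strand), an OAS-like protein with a ubiquitin-like tail, ranged from 8.58 to 15.3 CPM (median 12.3) in male WT and from 3.42 to 5.50 CPM (median 5.06) in male SIRT6-tg livers. Here too the groups were apart, and Oasl2 fell by 1.39 (SE 0.18, adjusted p = 8.24e-07), the lowest adjusted p among the 10 genes. Oasl2 shared no word with other genes.

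ISG15 is a ubiquitin-like protein that is conjugated to other proteins, and USP18 removes it from them and also dampens signalling at the interferon receptor. Usp18 (ENSMUSG00000030107.10, chr6:121245906-121270917, plus strand) ranged from 20.03 to 36.9 CPM (median 26.3) in male WT livers. In male SIRT6-tg livers it ranged from 9.58 to 20.7 CPM (median 15.8). For Usp18, 6 of 7 transgenic males were below every WT male, and it fell by 0.91 on the log2 scale (SE 0.20, adjusted p = 0.00136). Its exons overlap those of the antisense RNA gene Gm44148 over 124 of 2790 bases, and reads of the pair cannot be told apart where the counting did not use strand, which is not stated. Isg15 (ENSMUSG00000035692.6, chr4:156199424-156200818, minus strand) ranged from 7.78 to 22.3 CPM (median 12.7) in male WT and from 5.26 to 20.3 CPM (median 8.58) in male SIRT6-tg livers. Only 2 of 7 transgenic males were below every WT male, and the log2 fold change was −0.57 (SE 0.29, adjusted p = 0.171, 95% interval −1.16 to 0.02). The highest transgenic value, 20.3 CPM, came from mouse 7, and the next was 10.5 CPM. Without that mouse the log2 fold change was −0.86 with an adjusted p of 0.0261, and over all alternatives the adjusted p ran from 0.0199 to 0.313.

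Irf7 (ENSMUSG00000025498.15, chr7:141262706-141266481, minus strand) encodes the transcription factor that amplifies interferon-α production, and it had the highest CPM of the 10 genes. It ranged from 45.5 to 101 CPM (median 65.2) in male WT and from 34.2 to 45.6 CPM (median 37.9) in male SIRT6-tg livers. Transgenic males were close to each other, 6 of 7 were below every WT male, and Irf7 fell by 0.75 on the log2 scale (SE 0.17, adjusted p = 0.00130). Its exons share 45 bases with Phrf1 on the opposite strand. Rsad2 (ENSMUSG00000020641.15, chr12:26442746-26456452, minus strand) encodes viperin, which makes a chain-terminating nucleotide. It ranged from 14.1 to 29.2 CPM (median 19.98) in male WT and from 7.05 to 37.7 CPM (median 14.8) in male SIRT6-tg livers. The transgenic range enclosed the WT range, and the log2 fold change was −0.13 (SE 0.32, adjusted p = 0.827, 95% interval −0.79 to 0.53). Ifi44 (ENSMUSG00000028037.13, chr3:151730922-151749960, minus strand), an interferon-induced protein of unsettled function, ranged from 6.50 to 12.8 CPM (median 8.07) in male WT and from 2.21 to 3.82 CPM (median 2.75) in male SIRT6-tg livers. The groups were apart, and the decrease of 1.63 on the log2 scale (SE 0.24, adjusted p = 8.99e-06) was the largest of the 10.

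Whether the members differed from each other in males was asked with the log2 ratio of their counts within each mouse, a measure that no library scaling enters and that was added after the separate tests had been seen. All 45 pairs were compared in each sex with a two-sided exact permutation test over the 7 and 7 mice, which can give no p below 0.000583. In males, 27 of 45 pairs differed at an adjusted p under 0.05 over the 45. The ratio of Ifit1 to Ifit2 was 0.55 ± 0.40 (log2, SD, n = 7) in WT and 1.76 ± 0.55 in SIRT6-tg males, a difference of 1.21 (exact permutation p = 0.00117, adjusted p = 0.00583), with 6 of 7 transgenic mice above every WT mouse. Thus Ifit2 was lower relative to Ifit1 in the same livers. Irf7 relative to Ifi44 was 2.89 ± 0.28 in WT and 3.80 ± 0.38 in SIRT6-tg males (exact permutation p = 0.000583, adjusted p = 0.00583), with all 7 transgenic mice above every WT mouse. Oas1a relative to Irf7 was lower in all 7 transgenic than in any WT males, by 0.71 on the log2 scale (exact permutation p = 0.000583, adjusted p = 0.00583). Other pairs kept about the same ratio: Ifit2 to Oas1a differed by −0.02 (p = 0.941, exact permutation), Oasl2 to Oas1a by 0.05 (p = 0.808) and Ifit1 to Rsad2 by 0.04 (p = 0.776). The pairs share genes and mice and so are not independent. How many pairs of other genes differ in males was not counted, so 27 of 45 has no background beside it. In females, 0 of 45 pairs had an unadjusted p under 0.05 in the exact permutation test, and the lowest was 0.0845.

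In females, none of the 10 genes was called by edgeR, and none had an unadjusted p under 0.05. DESeq2 called none either. Over all genes tested, 0.00463% were called lower and 0.0232% higher, so the background in females was itself close to 0. The median log2 fold change of the members was −0.16, against 0.00 over all genes tested, and single values ran from −0.24 (Rsad2) to 0.11 (Ifit1). Without female WT mouse 5 the median of the members was 0.05, and without any other single library it was below 0. Ifi44 ranged from 9.73 to 24.1 CPM (median 13.1) in female WT and from 7.38 to 22.6 CPM (median 11.2) in female SIRT6-tg livers. Its log2 fold change was −0.05 with a 95% interval from −0.50 to 0.41. Oasl2 ranged from 8.59 to 13.9 CPM (median 10.6) in female WT and from 7.50 to 17.2 CPM (median 9.60) in female SIRT6-tg livers, with an interval from −0.37 to 0.32. For both genes these intervals do not reach the decrease seen in males. Ifit2 had female medians of 10.5 CPM in WT and 8.61 CPM in SIRT6-tg livers (95% interval of the log2 fold change −0.63 to 0.20). Oas1a had medians of 4.01 and 3.62 CPM (−0.59 to 0.27).

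Of the other members, Irf7 had female medians of 46.0 CPM in WT and 39.5 CPM in SIRT6-tg livers (95% interval −0.57 to 0.11), with 4 of 7 transgenic females below every WT female. Usp18 had medians of 20.9 and 26.7 CPM (−0.45 to 0.36), and Ifit3 of 15.5 and 16.6 CPM (−0.56 to 0.22). Isg15 had medians of 11.7 and 12.7 CPM (−0.75 to 0.42). The widest female intervals belonged to Ifit1, with medians of 29.2 and 31.2 CPM (−0.51 to 0.73), and Rsad2, with medians of 16.3 and 19.1 CPM (−0.90 to 0.42). For Rsad2 a decrease of the size that Irf7 showed in males could thus not be told from no change in females.

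**Figure D3:**
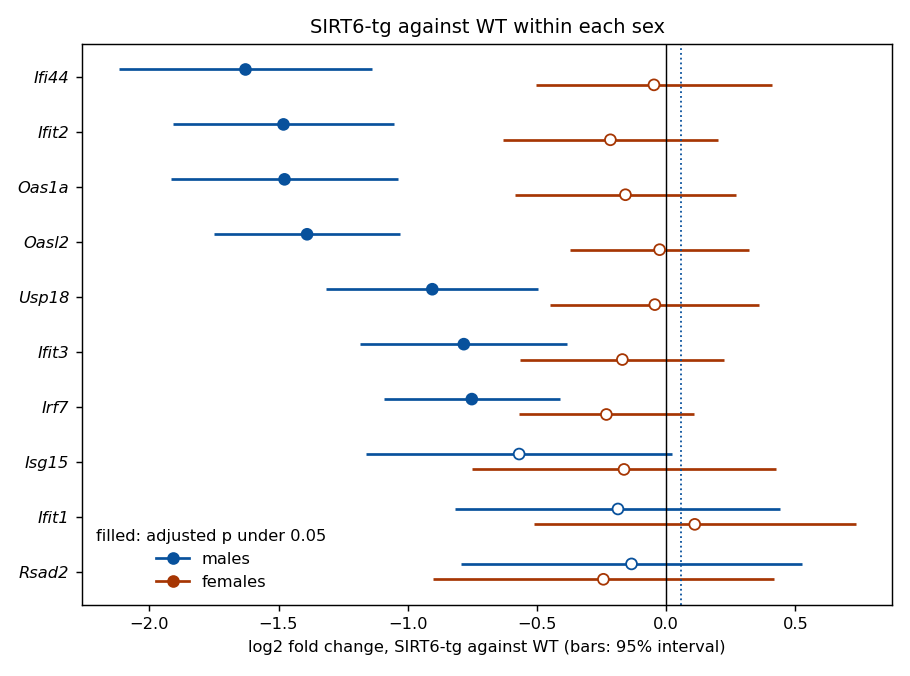
Log2 fold change of SIRT6-tg against WT (x axis) for each gene in males and females, with 95% intervals as bars and filled points where the adjusted p was under 0.05; the dotted line is the median of all genes tested in males (0.06). The 7 filled points are all in males, from −1.63 (Ifi44) to −0.75 (Irf7), and all female intervals include 0.

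The effect of SIRT6-tg differed between the sexes for 4 of the 10 genes, tested as the male minus the female log2 fold change. All 4 were more negative in males, a direction called for 3.84% of all genes tested. Oasl2 had the lowest adjusted p, with a difference of −1.36 (SE 0.24, adjusted p = 0.00116). For Ifi44 the difference was −1.58 (SE 0.33, adjusted p = 0.00372), for Oas1a −1.32 (SE 0.30, adjusted p = 0.00746) and for Ifit2 −1.26 (SE 0.29, adjusted p = 0.00817). These are the same 4 genes whose male groups did not overlap. Usp18 missed the threshold at −0.86 (adjusted p = 0.0727). It passed in DESeq2, with 2 surrogate variables, under library size alone, and without male SIRT6-tg mouse 7, female WT mouse 5, or female SIRT6-tg mouse 3 or 4, and its adjusted p over all alternatives ran from 0.00427 to 0.124. Ifit3 stood at −0.61 (adjusted p = 0.218), and at −0.85 without female WT mouse 5 (adjusted p = 0.0290, between 0.0290 and 0.345 over all alternatives). Irf7 (−0.52, adjusted p = 0.221), Isg15 (−0.41, adjusted p = 0.648), Ifit1 (−0.30, adjusted p = 0.777) and Rsad2 (0.11, adjusted p = 0.936) were not shown to differ between the sexes. Of these, Irf7 passed under library size alone (−0.83, adjusted p = 0.0262), as did Ifit3 (−0.92, adjusted p = 0.0323). Transgenic males also carried more Sirt6 RNA than transgenic females (above), so sex and amount of transgene RNA cannot be told apart.

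Between the WT groups, 0 of the 10 genes were called different by edgeR, while 5.71% of all genes tested were called lower and 6.65% higher in males than in females. An unadjusted p under 0.05 was found for 3 members. Ifi44 was lower in males, with medians of 8.07 and 13.1 CPM, 5 of 7 males below every female and a log2 fold change of −0.65 (SE 0.23, adjusted p = 0.0576). It passed in DESeq2, with a stricter filter on low counts and when male WT mouse 4 or 7, female WT mouse 1, or female SIRT6-tg mouse 2, 6 or 7 was left out, and its adjusted p ran from 0.0379 to 0.216. Ifit1 had a log2 fold change of −0.63 (adjusted p = 0.194) and Oas1a one of 0.47 (adjusted p = 0.143). The same 7 male WT livers serve as the reference for male SIRT6-tg livers. For Ifi44, male SIRT6-tg livers (highest value 3.82 CPM) lay below all livers of the other 3 groups, whose lowest value was 6.50 CPM. The same held for Oasl2, with 5.50 CPM against 7.50 CPM. For Ifit2 and Oas1a the highest male SIRT6-tg values (6.87 and 2.72 CPM) exceeded the lowest female ones (6.27 and 2.499 CPM). The share of all genes whose male SIRT6-tg livers lie below all other livers was not counted.

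Within a group, the same mice were often high or low for many of the genes. Female WT mouse 5 had the highest value of its group for 8 of 10 genes, among them Ifit1 (69.7 CPM, the next 30.6), Rsad2 (58.0, the next 24.1) and Ifit3 (36.6, the next 21.5). Male WT mouse 5 had the lowest value for 8 genes, and its library was the smallest of all, with 18758863 reads. Male SIRT6-tg mouse 3 had the lowest value for 7 genes. Male WT mouse 6 was highest for 5 genes and male WT mouse 7 for 4, and male SIRT6-tg mouse 7 was highest for 4, Isg15 among them. In female SIRT6-tg livers, mouse 7 was highest for 5 genes and mouse 4 lowest for 5. The spread between mice of a group differed among genes. The coefficient of variation in male SIRT6-tg livers was 10.3% for Irf7 and 11.7% for Oas1a, and 49.4% for Isg15 and 55.2% for Rsad2.

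**Figure D4:**
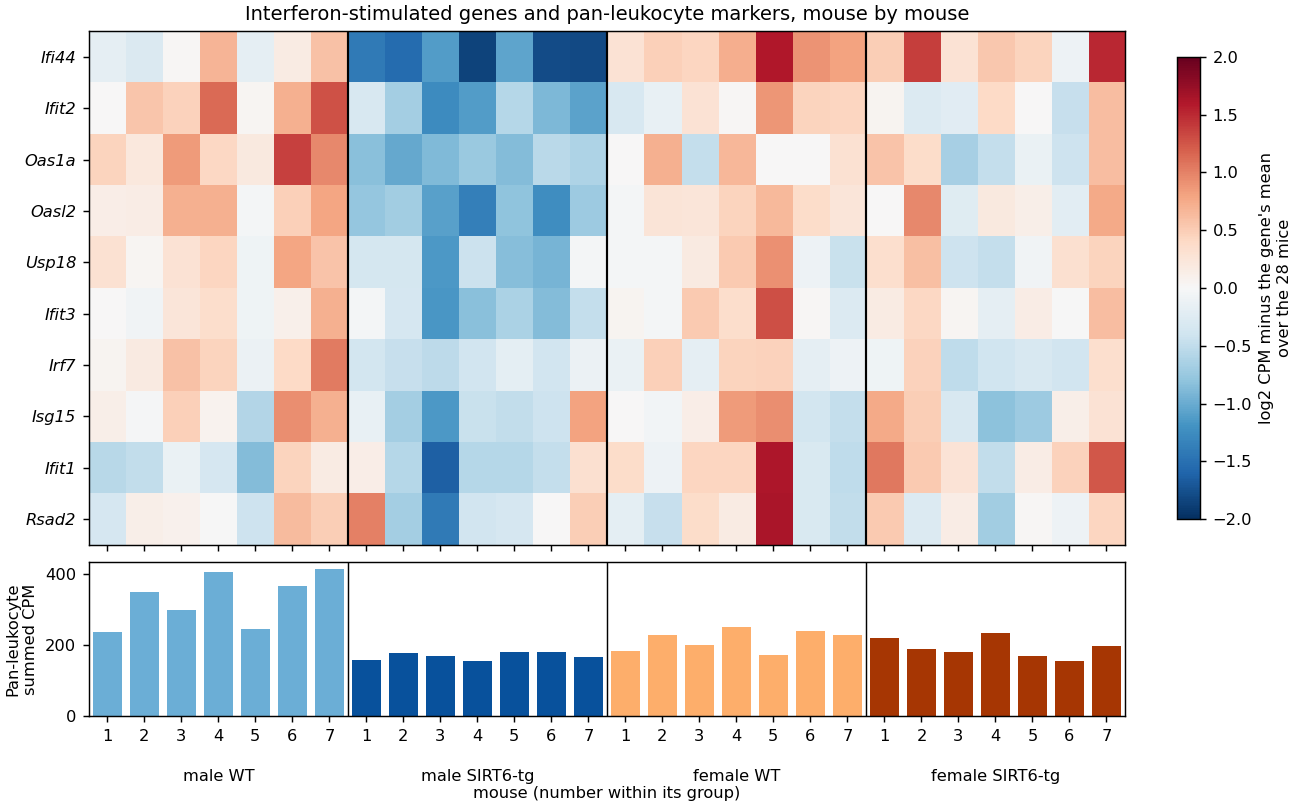
Upper panel, log2 CPM of each gene (rows) in each of the 28 livers (columns, numbered within group) minus the gene's mean over all livers, red above and blue below; lower panel, summed CPM of 10 pan-leukocyte markers in the same livers. The blue block of Ifi44, Ifit2, Oas1a and Oasl2 spans the 7 male SIRT6-tg livers, and female WT mouse 5, with 171 CPM of leukocyte markers, is the reddest column.

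Leukocyte markers moved with the members in males. Over all genes tested in males, 11.0% were called lower and 9.68% higher, and 4.37% were lower without overlap between the groups. Of 10 pan-leukocyte markers, 9 were lower in male SIRT6-tg livers (median log2 fold change −1.54), and their summed level was 236 to 413 CPM in male WT and 155 to 180 CPM in male SIRT6-tg livers, with no overlap. In female WT it was 171 to 250 CPM and in female SIRT6-tg livers 154 to 233 CPM. Of the Kupffer cell markers 7 of 8 were lower in males (summed 622 to 1268 against 456 to 680 CPM), and of the T cell markers 8 of 8 (15.3 to 46.3 against 5.26 to 8.13 CPM). Of the markers of plasmacytoid dendritic cells, the main producers of interferon-α, 5 of 8 were lower (34.1 to 66.0 against 31.1 to 47.6 CPM). B cell markers were lower for 4 of 6 and neutrophil markers for 1 of 6. In lists this short, 1 lower gene is close to the share over all genes tested. None of these lists had a gene without a count in any group. Of the sinusoidal endothelial markers 1 of 8 was lower, and of the hepatocyte markers 4 of 10 were higher and 0 lower with TMM; of these 4, Alb, Fgb and Serpina1c were called with RLE scaling, and only Serpina1c with upper-quartile scaling and with library size alone. The part of these cell types in the decrease of the members was not tested. Mouse by mouse, markers and members went together in some livers and not in others. Male WT mice 7, 6, 4, 3, 2, 1 and 5, ordered by mean rank over the members (1.6 to 6.7), ranked 1, 3, 2, 5, 4, 7 and 6 for the pan-leukocyte sum. Of these, mouse 7 had the highest sum (413 CPM) and was highest for 4 members. Male SIRT6-tg mice 1, 7, 5, 2, 6, 4 and 3, ordered likewise (2.3 to 6.2), ranked 6, 5, 1, 3, 2, 7 and 4. Female WT mice 5, 4, 2, 3, 6, 1 and 7 (1.5 to 5.3, mice 2 and 3 tied) ranked 7, 1, 4, 5, 2, 6 and 3. Female SIRT6-tg mice 7, 1, 2, 5, 6, 4 and 3 (1.6 to 5.6, mice 1 and 2 tied) ranked 3, 2, 4, 6, 7, 1 and 5. Female WT mouse 5 had the lowest sum of its group (171 CPM) and was highest for 8 members. Female SIRT6-tg mouse 4 had the highest sum of its group (233 CPM) and was lowest for 5 members. The relation between markers and members was not tested.

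In the pathway above these genes, the interferon genes on the list were near the limit of detection. The list does not hold every interferon-α gene. None of the 11 listed type I and III interferon genes reached the filter on low counts. Each had at most 5 reads summed over the 7 livers of a group. Ifnb1 had 1, 2, 1 and 0 reads in WT males, SIRT6-tg males, WT females and SIRT6-tg females. Of the receptor chains, Ifnar1 did not pass the test in males (log2 fold change 0.04, adjusted p = 0.863), Ifnar2 rose by 0.30 (adjusted p = 0.0133) under TMM, and Il10rb, shared by the receptors for interferon-λ and interleukin 10, fell by 0.51 (adjusted p = 0.00642). The Ifnar2 call held with RLE scaling (adjusted p = 0.0437) but not with upper-quartile scaling (0.22, adjusted p = 0.103) or library size alone (0.01, adjusted p = 0.935). The kinases Jak1 (−0.06) and Tyk2 (−0.16) were not called. Stat2 fell by 0.36 (adjusted p = 0.0147), and Irf9 had −0.17 (adjusted p = 0.171). None of these 4 was called in females.

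**Figure D5:**
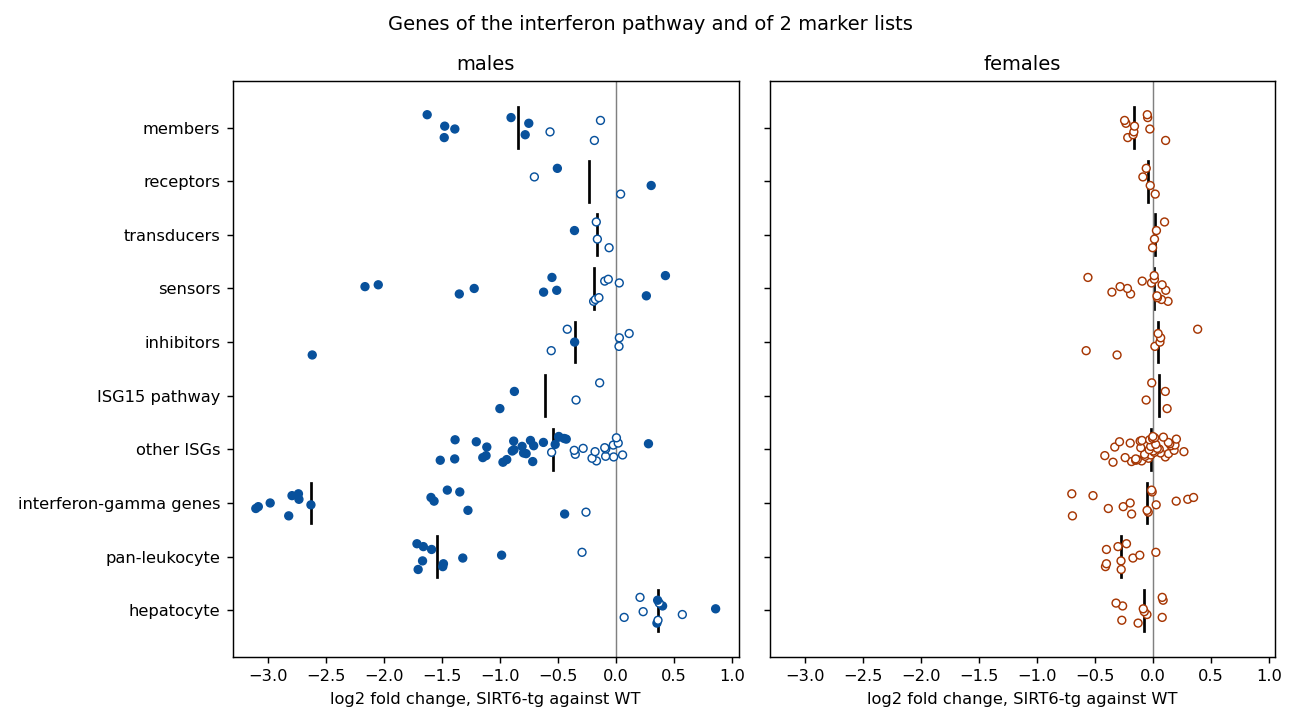
Log2 fold change of SIRT6-tg against WT (x axis) for each gene tested in 8 groups of the interferon pathway and in 2 marker lists, in males (left) and females (right), filled where the adjusted p was under 0.05, with a line at each median. In males the medians run from −2.63 (interferon-γ genes) to 0.36 (hepatocyte markers), and no female point is filled.

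Among 15 sensors and their adaptors, 7 were lower and 2 higher in males, against 11.0% lower and 9.68% higher over all genes tested. Tmem173, which encodes the DNA-pathway adaptor STING, fell by 1.35 (adjusted p = 8.15e-08), and Zbp1, a sensor of Z-form nucleic acids, fell by 2.05 (adjusted p = 3.92e-06). Irf3, the transcription factor that these pathways activate, rose by 0.43 (adjusted p = 0.00372), and the RNA-pathway adaptor Mavs rose by 0.26 (adjusted p = 0.0371). The Irf3 call held with RLE and upper-quartile scaling but not with library size alone (0.14, adjusted p = 0.338). Mavs was called with neither RLE (0.22, adjusted p = 0.0868) nor upper-quartile scaling (adjusted p = 0.172), and library size alone turned its direction (−0.01, adjusted p = 0.952). The RNA sensor Ifih1 had −0.18 (adjusted p = 0.316). Of 7 inhibitors 2 were lower, Socs1, a feedback inhibitor of JAK kinases, by 2.62 (adjusted p = 2.36e-08) and the phosphatase gene Ptpn6 by 0.36 (adjusted p = 0.0192). Of 4 genes for ISG15 conjugation, the activating enzyme Uba7 fell by 1.00 and the ligase Herc6 by 0.88, and the conjugating enzyme Ube2l6 had −0.34 (adjusted p = 0.119). In females 0 genes of these groups were called by edgeR, and 1 sensor and 1 inhibitor had an unadjusted p under 0.05. Between the WT groups, 1 sensor was higher in males, Tmem173 by 0.73 (adjusted p = 0.000553), and 0 were lower. Of the inhibitors 1 was higher in WT males, Socs1 by 2.01 (adjusted p = 7.72e-07), and 2 were lower. Over all genes tested, 6.65% were higher and 5.71% lower in WT males.

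Of 40 other interferon-stimulated genes, 24 were lower and 1 was higher in males, with a median log2 fold change of −0.54. Over all genes tested, 11.0% were lower and 9.68% higher, with a median of 0.06. This list was chosen with earlier results of these data known. The antiviral GTPase gene Mx1 fell by 1.15 (adjusted p = 0.00441), while Mx2 had −0.02 (adjusted p = 0.955). The OAS genes Oas1g (−1.52), Oas3 (−1.39) and Oas2 (−0.94) all fell, and Oasl1 had −0.21 (adjusted p = 0.507). The near copies of the IFIT genes also fell, Ifit3b by 0.72 (adjusted p = 0.0216) and Ifit1bl1 by 0.97 (adjusted p = 0.0418), the second from few reads (146 over the 7 male WT and 58 over the 7 male SIRT6-tg livers). Ifi27l2a fell by 1.12, Sp100, a nuclear body protein, by 0.81 and Slfn8 by 1.39. Bst2, which encodes the virus-retaining protein tetherin, had −0.35 (adjusted p = 0.305). Lgals9, which encodes galectin-9, rose by 0.28 (adjusted p = 0.0285) under TMM. It was not called with RLE (0.24, adjusted p = 0.0710) or upper-quartile scaling (adjusted p = 0.147), and its value was −0.01 with library size alone (adjusted p = 0.973). In females 0 of these 40 genes were called, and the median was −0.02.

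Genes tied to interferon-γ, several of which also respond to type I interferon, had larger decreases than most members. Of 15, 14 were lower in males, with a median of −2.63, against −0.84 for the members; no test of the difference between the lists was made. Ifng, the ligand, which T and NK cells make, fell by 2.82 (adjusted p = 0.000101) from a total of 142 reads over the 7 male WT livers to 16 over the 7 male SIRT6-tg livers. Gbp2, a guanylate-binding protein, fell by 3.08 and its relative Gbp5 by 2.98, the chemokine gene Cxcl10 by 2.74 and the transcription factor gene Irf1 by 1.28. In females 0 of 15 were called, with a median of −0.05. The difference between the sexes in the SIRT6-tg effect was called for 11 of these 15 genes, all more negative in males, and 13 of the 15 were higher in male WT than in female WT livers. For the members these counts were 4 of 10 and 0 of 10. Over all genes tested, 3.84% were more negative in males and 6.65% were higher in male WT livers, and 11.0% were lower in male SIRT6-tg livers. The interferon-γ list was chosen with earlier results of these data known.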

How the data were processed

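Whole liver of 28 mice was sequenced (single-end RNA-seq, NEBNext Ultra libraries). The deposited table holds raw counts per gene: the authors used STAR 2.5.0a on mm10 and had HTSeq assign uniquely mapped reads to Gencode vM12 genes, so stretches shared by near-identical copies can lose reads. Whether counting used strand is not stated. Symbols, exon lengths and positions came from Gencode vM21 by Ensembl identifier, and upstream sequences from RefSeq. The members and gene lists were chosen with earlier results of these data known.

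Features averaging 0.5 or more normalized counts (DESeq2 size factors) were kept (21583 of 49585). Counts were fitted with edgeR 4.0.16 (R 4.3.3), with TMM scaling, robust quasi-likelihood F-tests and 1 coefficient for each of the 4 groups over all 28 libraries, and with Benjamini-Hochberg adjustment. The fit was tested on simulated data. RPKM divides CPM by the union of exons. A floor of 3 reads corresponds to 0.0743 to 0.159 CPM; counts cover counting error only. Alternatives were other scalings and filters, DESeq2 1.42.0, 2 surrogate variables (sva 3.50.0), each sex alone, a replicate block and leaving out each library; the ratios between members, and the scalings for the pathway genes called higher, were added after the results were seen. The genes named were the 10 members, pathway genes listed by hand and, for each list, up to 2 genes in each direction with the lowest adjusted p in males. The p-values measure the spread between these mice. No 2 libraries of a group agreed within sampling noise. 1 listed pathway gene is not reported here.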

Additional observations from a re-analysis of the deposited data

Results flagged for a closer look

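A mouse stood apart from the other 6 of its group (Dixon's gap test, 95% level) in 5 of the 40 combinations of a member and a group, where chance gives about 1 in 20. Of these, 4 were the same mouse, female WT mouse 5, with Ifit1 at 69.7 CPM (next highest 30.6), Rsad2 at 58.0 (next 24.1), Ifit3 at 36.6 (next 21.5) and Ifi44 at 24.1 (next 14.8). The fifth was Isg15 in male SIRT6-tg mouse 7, at 20.3 CPM (next 10.5). Without female WT mouse 5 the female log2 fold changes ranged up to 0.45 (Ifit1), and no member was called.

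The SIRT6-tg effect differed between males and females, by the test of the difference in edgeR (log2, male minus female), for 4 members, Ifi44 (−1.58), Oasl2 (−1.36), Oas1a (−1.32) and Ifit2 (−1.26). Among the pathway genes chosen by name it differed for Tmem173 (−1.16), Socs1 (−2.31), Uba7 (−1.12), Herc6 (−0.98), Oas1g (−1.37), Oas3 (−1.24), Irf1 (−1.23), Gbp2 (−2.83) and Cxcl10 (−2.04).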

How the results depend on the processing

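In males, the 7 genes called lower passed in all 37 alternatives with the same direction, and the count was 7 in 27 of the 28 fits without 1 library and 8 in the other; in females it was 0 throughout. Isg15 in males also passed under library size alone (−0.89) and with 2 surrogate variables (−0.61). Library size alone moved the median of all genes in males from 0.06 to −0.22, and gave 7 members whose effect differed between the sexes in place of 4. That number was 5 with DESeq2 and with 2 surrogate variables (Usp18 added), and 4 to 6 without 1 library. Between the WT groups the number called was 1 under library size alone (Oas1a, 0.67), with the stricter filter and with DESeq2 (Ifi44), and 0 to 1 without 1 library. The direction turned for values near 0 that no setting called: the male minus female effect of Rsad2 (−0.21 under library size alone, −0.014 with the replicate block), and between WT groups Ifit3 (0.046) and Rsad2 (0.039) under library size alone and Isg15 (−0.049) with 2 surrogate variables. Without 1 library the female values ran from −0.22 to 0.14 for Ifi44, −0.047 to 0.45 for Ifit1, −0.26 to 0.059 for Ifit3, −0.18 to 0.047 for Oasl2, −0.35 to 0.17 for Rsad2 and −0.13 to 0.11 for Usp18. Those of Rsad2 ran from −0.43 to 0.0093 in males and from −0.32 to 0.25 for the difference between the sexes. Between WT groups they ran from −0.26 to 0.086 for Ifit3, −0.048 to 0.25 for Isg15 and −0.28 to 0.26 for Rsad2. The cause was not tested. Replicate numbers did not pair the mice: correlations of same-numbered mice ran from −0.12 to 0.23 in males and −0.28 to 0.27 in females, and 1 of 14 mice correlated best with its own number. The replicate block changed no call. Depth limits Ifi44 and Oas1a most (43 to 106 and 47 to 66 reads in male SIRT6-tg livers).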
